A study of Homo sapiens with 6 samples.

Results

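The subject here is a group of neighbouring genes at the tip of the short arm of human chromosome 4, band 4p16, measured in 3 multiple myeloma cell lines: FGFR3, NSD2, LETM1, TACC3, SLBP, NELFA and ZNF595. Members were all probe sets of the Affymetrix Human Genome U133 Plus 2.0 array whose annotation names 1 of these 7 genes and no other gene, and 15 of 54675 probe sets met that rule, for 6 of the 7 genes. A probe set is a group of short oligonucleotides that report together on a transcript. FGFR3 had 2 member probe sets, NSD2 6, LETM1 3, TACC3 1, SLBP 1 and ZNF595 2. NELFA had none, because both of its probe sets are annotated jointly with the microRNA gene MIR943, and their values are given separately. For ZNF595, 2 further probe sets are annotated to other genes as well and were left out.

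The samples were OPM2, ARP1 and OCI-MY5, established human lines of multiple myeloma, the malignancy of plasma cells. Each line was grown in RPMI-1640 with serum and sorted by flow cytometry into a CD24+ fraction, which the submitters call cancer stem cells, and a CD24- fraction. Each fraction gave 1 array, so there were 6 arrays, 2 per line and 3 per CD24 group. No treatment or engineered change is stated for any group. For comparisons between lines, both fractions of a line stand as its 2 replicates, and no label says that a fraction was sampled more than once. The p-values therefore measure the spread between these sorted fractions, and each line stands for itself only.

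OPM2 is known from the literature to carry t(4;14), the exchange between chromosomes 4 and 14 that defines a class of myeloma. The break lies near NSD2 and joins the region to the immunoglobulin heavy chain locus at 14q32, whose enhancers are active in plasma cells. NSD2 then stays on the rearranged chromosome 4 and FGFR3 moves to the rearranged chromosome 14, and each comes to lie beside immunoglobulin enhancers. FGFR3 is a receptor tyrosine kinase for fibroblast growth factors that signals through RAS and ERK. NSD2, also called WHSC1 or MMSET, methylates lysine 36 of histone H3 and is the gene raised in this class of myeloma whether or not FGFR3 is expressed. The files carry no cytogenetic record, so the arrays were compared by line only.

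The promoters of FGFR3, NSD2 and ZNF595 are printed here because these are the members with probe sets called higher in OPM2. Each sequence spans 250 bases before and 50 bases after the gene's start in RefSeq (GRCh38.p14), read 5′ to 3′ on the plus strand. FGFR3 lies at chr4:1793043-1793342, NSD2 at chr4:1871143-1871442 and ZNF595 at chr4:53071-53370. Capitals mark the GC box GGGCGG and the CCAAT box CCAAT, each on either strand. The TATA box TATAAA was searched as well and was in none of the 3 windows.
FGFR3: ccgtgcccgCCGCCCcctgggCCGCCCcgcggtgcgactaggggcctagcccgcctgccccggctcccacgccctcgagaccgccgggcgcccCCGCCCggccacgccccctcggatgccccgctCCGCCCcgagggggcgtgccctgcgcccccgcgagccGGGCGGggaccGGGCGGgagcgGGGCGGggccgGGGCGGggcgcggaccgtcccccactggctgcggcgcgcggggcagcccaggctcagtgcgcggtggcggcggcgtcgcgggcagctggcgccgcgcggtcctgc
NSD2: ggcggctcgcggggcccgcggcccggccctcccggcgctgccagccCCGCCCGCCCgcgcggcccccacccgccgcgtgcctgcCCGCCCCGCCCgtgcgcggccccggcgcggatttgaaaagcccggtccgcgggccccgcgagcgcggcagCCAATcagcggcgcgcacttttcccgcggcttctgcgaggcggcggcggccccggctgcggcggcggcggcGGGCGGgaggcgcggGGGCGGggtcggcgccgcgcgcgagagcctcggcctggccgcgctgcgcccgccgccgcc
ZNF595: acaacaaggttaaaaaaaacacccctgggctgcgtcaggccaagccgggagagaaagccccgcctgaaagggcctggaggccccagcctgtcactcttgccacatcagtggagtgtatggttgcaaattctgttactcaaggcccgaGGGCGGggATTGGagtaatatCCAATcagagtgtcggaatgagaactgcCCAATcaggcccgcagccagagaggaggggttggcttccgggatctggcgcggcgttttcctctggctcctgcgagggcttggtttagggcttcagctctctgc
The FGFR3 window held 8 GC boxes and no CCAAT box. The NSD2 window held 6 GC boxes, some of which overlap each other, and 1 CCAAT box. The ZNF595 window was unlike both: it held 1 GC box and 3 CCAAT boxes. Of 27305 promoters of the same length, 44.6% held a GC box, 35.7% a CCAAT box and 12.0% a TATA box. G and C made up 86.3% of the FGFR3 window, 86.7% of the NSD2 window and 58.0% of the ZNF595 window, against a median of 58.3% over those promoters. The FGFR3 and NSD2 windows held 51 and 63 CpG dinucleotides and the ZNF595 window 12, against a median of 14. The windows are those of the reference genome and show nothing of a rearranged chromosome. Of the other members, the SLBP window held 2 GC boxes and neither other motif, and the TACC3 and NELFA windows held none of the 3.

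Values are deposited MAS5 intensities, which are linear and scaled to a trimmed mean of 500.1 on each array. They were compared as log2(intensity + 16), so differences of dim probe sets are understated. The yardstick for dimness was 3 control probe sets for a bacterial gene, TrpnX, that read 2.23 to 96.4 over the 6 arrays. A value at or below 96.4 is called dim here, and detection calls were not used. Tests used limma on all 54613 probe sets that are not controls, and a call means a Benjamini-Hochberg adjusted p below 0.05. Bulk intensities cannot tell more RNA per cell from more cells that make it.

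The OPM2 CD24+ array stood apart from the other 5. Its spike-in controls averaged 37362, against 6175 to 7399, and its median intensity was 135, against 69.0 to 84.2. Its ratio of 3′ to 5′ ACTB probe sets was 27.1, against 2.47 to 23.2 on the others, and a high ratio is a sign of degraded or poorly copied RNA. In this ratio OCI-MY5 CD24- came close, at 23.2. The same ratio for GAPDH was 5.98 in OPM2 CD24+ and 5.16 in OCI-MY5 CD24-. For the calls named below, what became of them without the OPM2 CD24+ array is given beside them. All 7 plasma cell markers exceeded the bacterial controls on all 6 arrays, but they did not move together: TNFRSF17 read 34757 and 29320 in OPM2 and 3885 to 11584 on the other 4 arrays, whereas MZB1 read 3792 to 4194 in OPM2 and 5072 to 11893 on the others. Erythroid markers moved with OPM2 too: the 2 of 3 with a probe set of their own summed to 1796 to 2385 on OPM2 arrays and 85.0 to 282 on the others, nearly all of it HBB, while ALAS2 was dim on every array. The 3 epithelial markers summed to 97.8 to 343 on OPM2 arrays and 20.1 to 94.8 on the others. Each was dim on 5 or 6 of the 6 arrays, and none separated OPM2 from the other lines by itself. The T cell, myeloid and fibroblast sums overlapped. The part of these cells in the line differences was not tested. The 6 probe sets for CD24, the sort marker, read 1.69 to 140.3 and were dim on 4 to 6 of the 6 arrays each, so the arrays give no check of the sort.

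Against ARP1 and OCI-MY5, OPM2 had far more FGFR3 and ZNF595 signal, 7.90 and 7.003 log2 units higher by the brightest probe set of each, and a smaller rise of NSD2. LETM1, TACC3 and SLBP, which lie among them, were not called in either direction. In OPM2 minus the mean of the other lines, 4 of the 15 member probe sets were called higher and none was called lower, where 1.48% of all probe sets were called higher and 2.05% lower. The unadjusted p was below 0.05 for 10 of the 15, against 21.7% of all probe sets. Without the OPM2 CD24+ array 2 members remained called, FGFR3 204379_s_at and ZNF595 227952_at. Both OPM2 arrays lay above all 4 others for 8 members and below them for 1, and over all probe sets these shares were 16.8% and 13.1%. The median difference was 1.38 over the members and 0.15 over all probe sets.

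**Figure D1:**
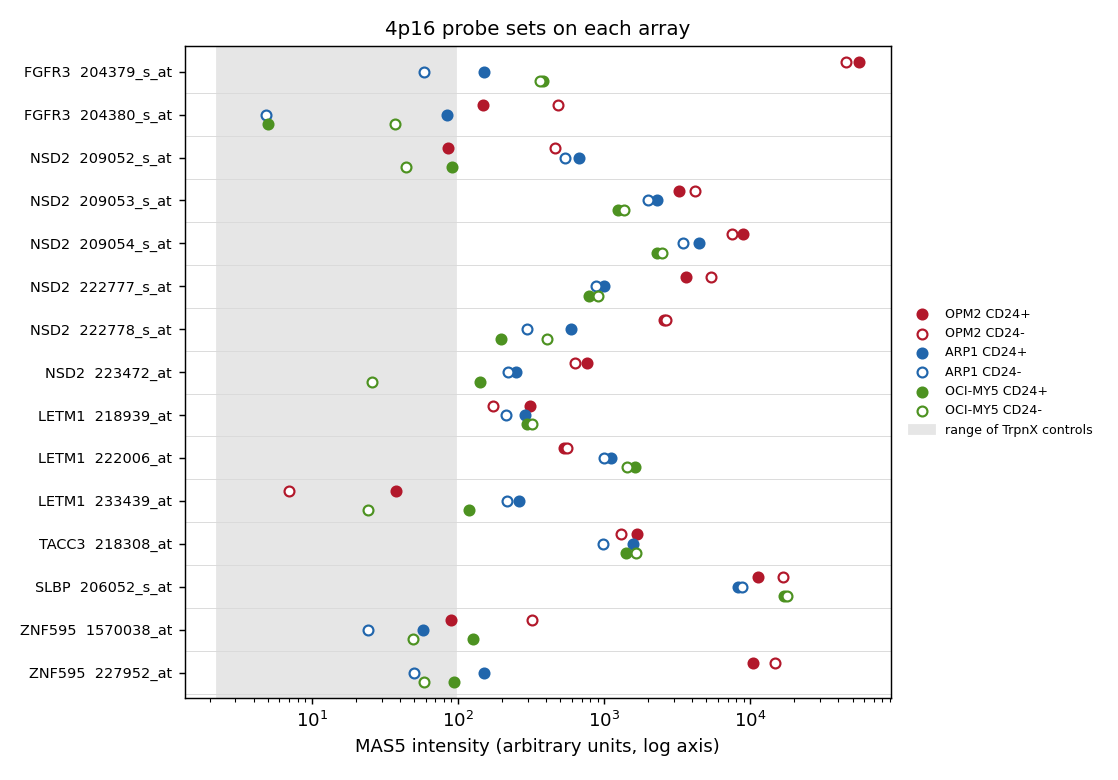
Intensity of the 15 member probe sets on each of the 6 arrays, on a log axis, with the lines in colour, CD24+ filled, CD24- open and the range of the TrpnX controls in grey. FGFR3 204379_s_at and ZNF595 227952_at stand clear in OPM2, 5 of the 6 NSD2 probe sets are separated by less and 209052_s_at overlaps, TACC3 overlaps too, and SLBP in OPM2 lies between the other lines.

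FGFR3 204379_s_at read 55028 in OPM2 CD24+ and 44707 in OPM2 CD24- cells, against 150 and 58.7 in ARP1 and 383 and 362 in OCI-MY5, with the CD24+ fraction first in each line. Both OPM2 arrays lay far above the other 4, the lower of them 117-fold above the highest other array. The difference was 7.90 log2 units (SE 0.40, 95% interval 6.88 to 8.92, limma adjusted p = 0.0042), rank 9 of 54613 probe sets from the highest. It was 8.80 against ARP1 alone (SE 0.46, adjusted p = 0.0077) and 6.997 against OCI-MY5 alone (SE 0.46, adjusted p = 0.0084). With OPM2 CD24+ left out it was 8.65 against ARP1 and still called by limma (adjusted p = 0.039), but against OCI-MY5 it was 6.85 and no longer called (adjusted p = 0.051). Between the other lines, ARP1 read lower than OCI-MY5 by 1.80 log2 units, which was not called (SE 0.46, unadjusted p = 0.011, adjusted p = 0.34). Without the OPM2 CD24+ array the difference from both lines was 7.75 and still called (adjusted p = 0.034). The call against both lines was lost by a small margin only without the ARP1 CD24- array (7.61, adjusted p = 0.052).

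The other FGFR3 probe set, 204380_s_at, was far dimmer. It read 148 and 484 in OPM2, 83.4 and 4.83 in ARP1 and 5.03 and 36.8 in OCI-MY5. OPM2 again lay above all 4 other arrays, but by 1.78-fold at the closest, and those 4 were all dim. Its difference of 2.88 log2 units did not pass the test (SE 0.86, interval 0.69 to 5.07, adjusted p = 0.15). It was the only member whose mean lay below the median of all probe sets, and its fractions differed by 1.33 to 2.25 log2 units within lines. The 2 FGFR3 probe sets thus ranked OPM2 first alike and placed ARP1 and OCI-MY5 in no shared order.

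NSD2, the histone methyltransferase, was higher in OPM2 by 5 of its 6 probe sets, and 2 of these were called. For the sixth, the OPM2 arrays overlapped the others. Probe set 222777_s_at read 3625 and 5405 in OPM2, against 992 and 880 in ARP1 and 791 and 908 in OCI-MY5. OPM2 was clear of both lines, whose values overlapped each other. The difference was 2.29 log2 units (SE 0.29, interval 1.55 to 3.04, adjusted p = 0.026), and it was called against ARP1 alone (2.23, adjusted p = 0.048) and against OCI-MY5 alone (2.36, adjusted p = 0.045). Neither of these was called by limma without the OPM2 CD24+ array (2.51, adjusted p = 0.073, and 2.65, adjusted p = 0.071).

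Probe set 222778_s_at read 2571 and 2640 in OPM2, against 589 and 295 in ARP1 and 196 and 405 in OCI-MY5. The OPM2 arrays were nearly equal and the lower lay 4.37-fold above the highest other array. The difference was 2.87 log2 units (SE 0.44, interval 1.74 to 3.99, adjusted p = 0.041); against the lines one at a time it was 2.60 for ARP1 and 3.13 for OCI-MY5, neither called (adjusted p = 0.082 and 0.057). Both NSD2 calls were close to the threshold. Without the OPM2 CD24+ array the difference was 2.58 for 222777_s_at (adjusted p = 0.056) and 2.88 for 222778_s_at (adjusted p = 0.13). The loss of either ARP1 array or either OCI-MY5 array also ended both calls (adjusted p = 0.11 to 0.14), and the loss of the OPM2 CD24- array ended that of 222778_s_at (adjusted p = 0.073).

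Of the 3 NSD2 probe sets with both OPM2 arrays highest and no call, 209054_s_at was the brightest. It read 8911 and 7508 in OPM2, 4454 and 3436 in ARP1 and 2303 and 2466 in OCI-MY5. The 3 lines did not overlap at all, with ARP1 in between. Its difference was 1.42 log2 units (SE 0.27, interval 0.73 to 2.10, adjusted p = 0.065). Probe set 209053_s_at kept the same order, with 3238 and 4169 in OPM2, 2284 and 1976 in ARP1 and 1241 and 1367 in OCI-MY5, and a difference of 1.14 log2 units (SE 0.27, adjusted p = 0.094). Probe set 223472_at read 764 and 629 in OPM2, 248 and 219 in ARP1 and 141 and 25.9 in OCI-MY5, again in that order, with a difference of 2.32 log2 units (SE 0.57, adjusted p = 0.10). ARP1 minus OCI-MY5 was 0.71, 0.70 and 1.62 log2 units for these, and none was called (lowest adjusted p = 0.52).

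NSD2 209052_s_at went its own way. It read 85.5 and 459 in OPM2, 668 and 536 in ARP1 and 91.1 and 44.0 in OCI-MY5. Here the highest arrays were those of ARP1, the OPM2 fractions differed by 2.23 log2 units, and 3 of the 6 arrays were dim. These 3 arrays also had the highest 3′ to 5′ ACTB ratios: 27.1 in OPM2 CD24+, 9.36 in OCI-MY5 CD24+ and 23.2 in OCI-MY5 CD24-. The ratio was 7.54 in OPM2 CD24- and 2.63 and 2.47 in ARP1. The part of RNA quality in the readings of this probe set was not tested. OPM2 minus the others was -0.02 log2 units (SE 0.69, interval -1.77 to 1.74, adjusted p = 0.99), made up of -1.49 against ARP1 and 1.45 against OCI-MY5. Without the OPM2 CD24+ array it was 1.097 and without OPM2 CD24- it was -1.13, not called in either case (adjusted p = 0.30 and 0.17).

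The 6 probe sets gave OPM2 the higher level in 5 cases, by differing amounts, and for 209052_s_at the direction turned with which OPM2 array was left out. Called or not, the 5 differences ran from 1.14 to 2.87 log2 units, and those of 222777_s_at and 209053_s_at had intervals of 1.55 to 3.04 and 0.45 to 1.82. The OPM2 difference was also compared between probe sets on the same arrays, in all 15 pairs. It was larger by 0.88 to 1.73 log2 units for each of 222777_s_at, 222778_s_at and 223472_at than for each of 209053_s_at and 209054_s_at. In these 6 pairs the OPM2 arrays did not overlap the other 4, and each gave 0.13 in an exact permutation test (two-sided, unadjusted), the smallest p that 2 arrays against 4 allow. Over 209052_s_at the difference of the others was larger by 1.15 to 2.88 log2 units, with overlapping arrays (exact permutation p = 0.27 to 0.40). None of the 15 pairs could pass 0.05 in this design. Where along the transcript each probe set binds is not given in the sources used here, so the values could not be ordered along the gene.

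**Figure D2:**
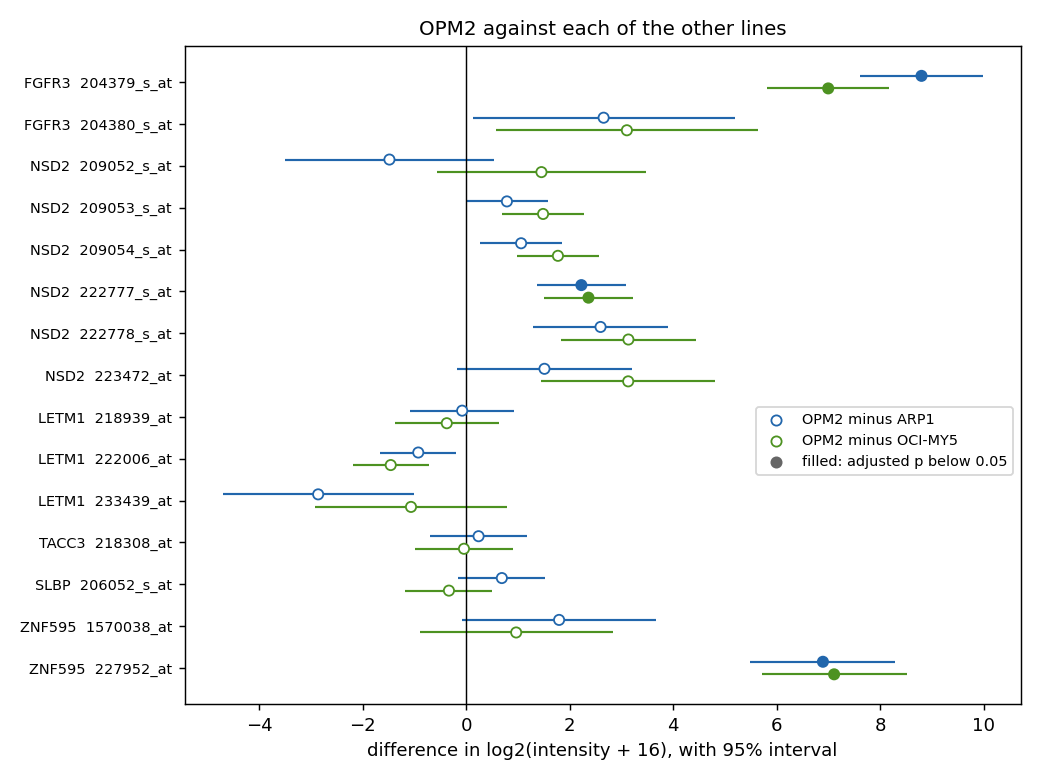
Difference in log2(intensity + 16) of OPM2 minus ARP1 and of OPM2 minus OCI-MY5 for each member probe set, with 95% intervals from limma and filled points where the adjusted p was below 0.05. In both comparisons FGFR3 204379_s_at, NSD2 222777_s_at and ZNF595 227952_at were called, and NSD2 209052_s_at is the NSD2 probe set whose points fall on both sides of 0.

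Set against each line alone, 3 members were called against ARP1, where 2.35% of all probe sets were called, and 3 were called against OCI-MY5, where 2.18% were. All were higher in OPM2. They were FGFR3 204379_s_at, NSD2 222777_s_at and ZNF595 227952_at in both comparisons, which share the OPM2 arrays. Limma called 1 member against ARP1, FGFR3 204379_s_at, and 0 against OCI-MY5 without the OPM2 CD24+ array, with 11 and 10 members at an unadjusted p below 0.05. It called 2 and 3 without OPM2 CD24-. Without any 1 of the ARP1 or OCI-MY5 arrays it called 0 in both comparisons, with 5 to 10 members at an unadjusted p below 0.05. ARP1 minus OCI-MY5 gave no call among the members by limma, where 0.00183% of all probe sets were called. Unadjusted p was below 0.05 for 3 members there, against 9.91% of all probe sets. These were FGFR3 204379_s_at, NSD2 209052_s_at, which was 2.94 log2 units higher in ARP1 (SE 0.80, adjusted p = 0.36), and SLBP. The 3′ to 5′ ACTB ratio was 2.63 and 2.47 in ARP1 and 9.36 and 23.2 in OCI-MY5.

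LETM1 encodes a protein of the inner mitochondrial membrane that takes part in ion exchange, and its gene lies between FGFR3 and NSD2. None of its 3 probe sets was called, and they did not move alike. Probe set 222006_at read 531 and 557 in OPM2, against 1111 and 989 in ARP1 and 1619 and 1434 in OCI-MY5. It was the only member with both OPM2 arrays below all 4 others, the lowest of which was 1.78-fold above the higher OPM2 array. Its difference was -1.19 log2 units (SE 0.25, interval -1.83 to -0.56, adjusted p = 0.076). Probe set 218939_at read 312 and 172 in OPM2, 286 and 212 in ARP1 and 294 and 320 in OCI-MY5, with a difference of -0.23 (SE 0.34, interval -1.10 to 0.64, adjusted p = 0.74). The third, 233439_at, read 37.7 and 6.93 in OPM2, 263 and 218 in ARP1 and 119 and 24.1 in OCI-MY5. It was dim in both OPM2 arrays and in the lower OCI-MY5 array, and its difference of -1.97 was not called (SE 0.63, adjusted p = 0.17).

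TACC3 stabilises the microtubules of the mitotic spindle together with clathrin. Its probe set 218308_at read 1666 and 1298 in OPM2, 1572 and 985 in ARP1 and 1399 and 1643 in OCI-MY5. The lines overlapped throughout. The difference was 0.10 log2 units (SE 0.32, interval -0.72 to 0.91, adjusted p = 0.89), and its sign turned to -0.23 when each array was centred on its median. SLBP binds the stem-loop at the end of histone mRNAs and is needed for their processing and translation. Its probe set 206052_s_at read 11310 and 16725 in OPM2, 8278 and 8790 in ARP1 and 16931 and 17779 in OCI-MY5. OPM2 lay between the other lines, with a difference of 0.18 (SE 0.29, interval -0.55 to 0.90, adjusted p = 0.76) that became -0.15 after median centring. ARP1 was lower than OCI-MY5 in both fractions, by 1.02 log2 units without a call (SE 0.33, unadjusted p = 0.026, adjusted p = 0.42).

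NELFA is a subunit of the complex that holds RNA polymerase II paused near promoters. Its jointly annotated probe set 203112_s_at read 699 and 942 in OPM2, 1010 and 1461 in ARP1 and 1448 and 1319 in OCI-MY5, while 34225_at read 992 and 941 in OPM2, 935 and 920 in ARP1, 1505 and 1550 in OCI-MY5. OPM2 lay below the other lines for the first and level with ARP1 for the second. Neither difference was called (-0.66, SE 0.30, adjusted p = 0.29 and -0.30, SE 0.24, adjusted p = 0.52).

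ZNF595, a KRAB zinc finger gene, is the gene of the group nearest the telomere. Its probe set 227952_at read 10492 and 14814 in OPM2, against 150 and 50.1 in ARP1 and 93.5 and 58.5 in OCI-MY5. Both OPM2 arrays were bright, and 3 of the other 4 were dim. The difference was 7.003 log2 units (SE 0.48, interval 5.79 to 8.22, adjusted p = 0.0065), rank 17 of all probe sets, and the lower OPM2 array lay 69.7-fold above the highest other array. It was 6.89 against ARP1 (adjusted p = 0.013) and 7.11 against OCI-MY5 (adjusted p = 0.012), whose own values overlapped. Without the OPM2 CD24+ array it was 7.25 against both lines and still called (adjusted p = 0.046), and against each line alone it was not called (limma adjusted p = 0.058 in both comparisons). The call was lost by a small margin without the ARP1 CD24- array or either OCI-MY5 array (adjusted p = 0.052 to 0.054). The second ZNF595 probe set, 1570038_at, read 89.7 and 318 in OPM2, 57.3 and 24.0 in ARP1 and 126 and 49.3 in OCI-MY5. It was dim on 4 arrays, overlapped between lines and was not called (1.38, SE 0.64, adjusted p = 0.29). KRAB zinc finger genes share long stretches of sequence, so signal from related transcripts cannot be told apart from that of ZNF595.

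The members were then placed among the other genes of 4p16.3, in the order of the RefSeq table from the telomere towards the centromere, with each gene represented by its brightest probe set. The 50 genes placed were these 7 and 43 neighbours. ZNF595 comes first of all, and SLBP, TACC3, FGFR3, LETM1, NSD2 and NELFA lie close together with TMEM129 among them. Of the 43 neighbours 1 was called higher in OPM2 and none lower, and their median difference was 0.20 log2 units. For all probe sets the shares were 1.48% called higher and 2.05% lower, and the median was 0.15. The called neighbour was NAT8L, an enzyme that makes N-acetylaspartate and the next gene placed after NELFA on the centromere side. NAT8L 228880_at read 213 and 189 in OPM2, 103 and 89.3 in ARP1 and 29.0 and 22.0 in OCI-MY5 (1.67 log2 units, SE 0.26, adjusted p = 0.040), and it was called in 4 of 14 alternative settings, not without the OPM2 CD24+ array (1.59, adjusted p = 0.10). NAT8L was dim in ARP1 CD24- and in both fractions of OCI-MY5. The other neighbours ran from -1.47 for ZNF718 to 2.04 for NKX1-1. The 25 neighbours on the telomere side of NSD2 had a median of 0.20 and no call, and the 18 on the centromere side had a median of 0.27 and 1 call. Between ZNF595 and FGFR3 none of the genes placed was called.

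**Figure D3:**
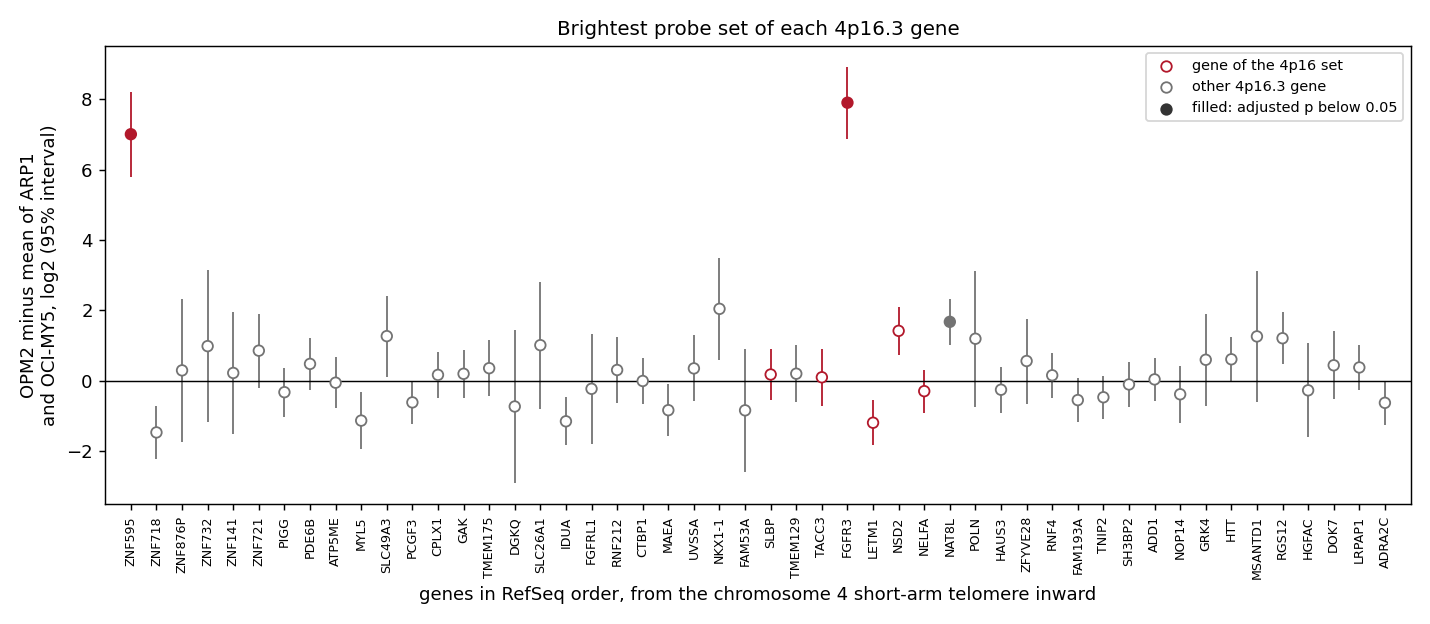
OPM2 minus the mean of ARP1 and OCI-MY5 in log2(intensity + 16) for 50 genes of 4p16.3 in their order from the telomere, 1 point per gene for its brightest probe set, with 95% intervals from limma. FGFR3 at 7.90 and ZNF595 at 7.003 are far above the neighbours, which run from -1.47 to 2.04.

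The genes whose profile over the 6 arrays was most like that of FGFR3 204379_s_at were ITM2A, PLS3, IGLC1, XIST and CTHRC1, the last at a distance of 1.95, against a median of 9.39 over 22420 probe sets compared. The measure was the Euclidean distance between log2 profiles centred on their own mean. ITM2A read 12555 and 11333 in OPM2 and 3.94 to 26.4 on the other 4 arrays, and CTHRC1 24709 and 21905 in OPM2 and 86.1 to 143 on the others. All 5 shared the pattern of a high OPM2 pair over 4 low arrays. The genes most like NSD2 209054_s_at were RAI1, FERMT3, RBL1, KLF3 and AKAP19, at distances of 0.19 to 0.26 against a median of 2.07. They shared its graded order: RAI1 read 3624 and 2762 in OPM2, 1657 and 1400 in ARP1 and 899 and 864 in OCI-MY5. With 6 arrays of 3 lines, such likeness describes how the lines differ and no more.

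FGFR3 is a receptor for fibroblast growth factors. Of 22 genes of the fibroblast growth factor family, not all of them ligands of FGFR3, 1 rose in OPM2 and none fell. The rise was by 2 of the family's 45 probe sets, and the median difference was 0.40. The shares over all probe sets were 1.48% called higher and 2.05% lower. FGF9, a ligand that binds FGFR3, read 369 and 426 in OPM2, 56.6 and 70.1 in ARP1 and 24.6 and 12.0 in OCI-MY5 by 206404_at. The other 4 arrays were dim, and the difference was 2.998 log2 units (SE 0.29, adjusted p = 0.014). Its probe set 239178_at agreed in direction at 2.41 (SE 0.25, adjusted p = 0.017). They were 3.10 and 2.42 without the OPM2 CD24+ array and not called (limma adjusted p = 0.062 and 0.061). Among 12 named genes of the receptor family and its adaptors, no probe set of 52 was called, and the median was 0.17. The largest differences there were -2.18 and -1.97 for FGFR1 210973_s_at and 211535_s_at (adjusted p = 0.059 and 0.065).

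The targets and feedback inhibitors of FGFR and ERK signalling moved in both directions. Of 16 genes with 42 probe sets, 2 genes rose by 4 probe sets and 4 genes fell by 5, with a median difference of -0.38. Over all probe sets 1.48% were called higher and 2.05% lower, with a median of 0.15. DUSP4, a phosphatase that inactivates ERK, rose by all 3 of its probe sets: 204014_at read 18251 and 16313 in OPM2, 987 and 842 in ARP1 and 420 and 254 in OCI-MY5 (4.94 log2 units, SE 0.31, adjusted p = 0.0055). SPRY2, a Sprouty feedback inhibitor, rose as well, at 219 and 158 in OPM2 and 25.4 to 58.7 on the other arrays (1.92, SE 0.28, adjusted p = 0.037).

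EGR1, a transcription factor induced by ERK, fell. Its probe set 201694_s_at read 88.2 and 10.6 in OPM2, against 3079 and 3935 in ARP1 and 724 and 975 in OCI-MY5 (-5.04 log2 units, SE 0.60, adjusted p = 0.022), and OPM2 was dim in both fractions. EGR1 201693_s_at fell by 3.83 (adjusted p = 0.017), and 227404_s_at overlapped between lines and was not called (-2.35, adjusted p = 0.21). The pathway inhibitors IL17RD and SPRY4 and the early response gene IER3 also fell. OPM2 was dim in both fractions for each of them, and the lowest other IL17RD array, at 96.3, was at the dim limit. IL17RD 227997_at read 5.71 and 5.36 in OPM2 and 96.3 to 145 on the other arrays (-2.63, SE 0.24, adjusted p = 0.012), while its other probe set was dim throughout. SPRY4 read 58.0 and 56.3 in OPM2 and 202 to 453 on the others (-2.21, SE 0.28, adjusted p = 0.027), and IER3 read 89.6 and 87.8 in OPM2 and 299.5 to 454 on the others (-1.85, SE 0.26, adjusted p = 0.031). DUSP6, another ERK phosphatase, was not called by any of its 3 probe sets (-0.84 to -0.27, lowest adjusted p = 0.23). All 3 DUSP4 probe sets and both called EGR1 probe sets were still called without the OPM2 CD24+ array, and SPRY2, IL17RD, SPRY4 and IER3 were not (limma adjusted p = 0.0504 to 0.098). SPRY2, IER3 and DUSP6 were named after their values were seen.

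**Figure D4:**
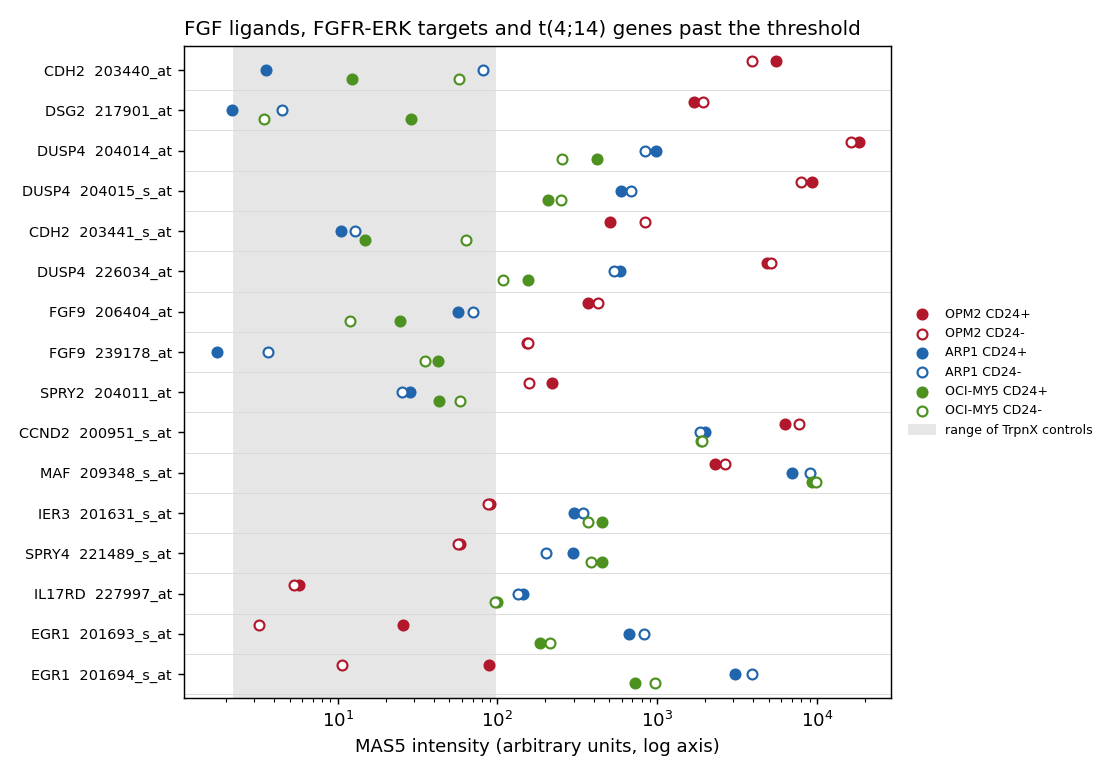
Intensity, on a log axis, of probe sets of ligand, target and 14q32 genes on each of the 6 arrays, with the lines in colour, CD24+ filled, CD24- open and the range of the TrpnX controls in grey. Only probe sets called in OPM2 minus the mean of the other lines are drawn. Uncalled probe sets of the same genes, such as MAF 206363_at, are left out. Among those drawn, DUSP4, FGF9, CDH2 and DSG2 are high in OPM2 and EGR1 and MAF are low there.

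Of 18 named genes that write, erase or read the NSD2 mark on histone H3, with 59 probe sets, 1 rose and 1 fell by 1 probe set each, and the median was 0.04. Of all probe sets 3.54% were called in either direction, and their median was 0.15. DNMT3A is a DNA methyltransferase that binds methylated lysine 36. It read 186 and 146 in OPM2 and 636 to 1072 on the other arrays by 222640_at (-2.23 log2 units, SE 0.26, adjusted p = 0.021), and its other probe sets were not called. KDM4B, a histone demethylase, read 4288 and 4656 in OPM2 and 1116 to 1620 on the others by 212492_s_at (1.72, SE 0.25, adjusted p = 0.035), and its other probe sets were not called. For the partners of SLBP in histone mRNA processing, with 26 probe sets, 1 of 11 genes fell by 1 probe set and none rose, with a median of -0.43. That gene was CPSF3, the nuclease that cuts histone and other mRNA precursors, which read 3567 and 3777 in OPM2, 18167 and 19049 in ARP1 and 23696 and 24208 in OCI-MY5 (-2.52, SE 0.24, adjusted p = 0.013). None of these 3 genes was called without the OPM2 CD24+ array (adjusted p = 0.058 for DNMT3A, 0.083 for KDM4B and 0.054 for CPSF3 by limma).

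No probe set was called in the other partner lists. Of 9 named genes of the NELF complex and pause release, with 23 probe sets and a median of 0.02, the largest differences were -1.48 for HEXIM1 and -1.36 for CDK9. The TACC family and its partners, 5 genes with 18 probe sets, had a median of 0.30, led by 1.88 for CLTC and 1.79 for TACC2. Of 5 named LETM1 relatives with 9 probe sets and a median of 0.48, SLC8B1 had the largest difference at 1.92 (adjusted p = 0.079). The 5 KRAB zinc finger genes beside ZNF595, with 9 probe sets, had a median of 0.22 and ran from -1.47 for ZNF718 (adjusted p = 0.070) to 0.98 for ZNF732.

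Genes tied to t(4;14) myeloma and to other 14q32 partners made up the last list. Of 6 named genes with 18 probe sets, 3 rose by 4 probe sets and 1 fell by 1, with a median of 0.19. Among all probe sets 1.48% were called higher and 2.05% lower. CDH2, N-cadherin, read 5535 and 3933 in OPM2, 3.54 and 81.8 in ARP1 and 12.3 and 57.9 in OCI-MY5 (6.71 log2 units, SE 0.78, adjusted p = 0.021). DSG2, a desmosomal cadherin, read 1711 and 1935 in OPM2, 2.17 and 4.51 in ARP1 and 28.7 and 3.46 in OCI-MY5 by 217901_at (6.27, SE 0.41, adjusted p = 0.0060). By these values both genes were dim on all arrays of the other lines. The other DSG2 probe set, 1553105_s_at, was not called. CCND2, a cyclin that drives entry into the cell cycle, rose by 1.87 with 200951_s_at (adjusted p = 0.030), and its other 3 probe sets were not called. MAF, a transcription factor raised by other 14q32 breaks, read 2295 and 2665 in OPM2, 7031 and 9064 in ARP1 and 9341 and 9833 in OCI-MY5 by 209348_s_at (-1.82, SE 0.27, adjusted p = 0.037), while its bright probe set 206363_at did not differ by a call (0.25, adjusted p = 0.62). DSG2 was still called without the OPM2 CD24+ array, and CDH2, CCND2 and MAF were not (limma adjusted p = 0.071 to 0.10). Of the 20 probe sets named as called in the lists and among the neighbours, 6 kept their call without the OPM2 CD24+ array, 0 to 2 without 1 of the ARP1 or OCI-MY5 arrays, and 20 without the OPM2 CD24- array, and none turned its sign.

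The study's own question was CD24+ against CD24- cells, and there no member was called. Nor was any other probe set by limma, with 0.00% called, also with the line as a block. Unadjusted p was below 0.05 for 3.42% of all probe sets and for none of the 15 members, whose lowest was 0.30. That fit has no term for the line, so differences between lines count as spread. FGFR3 204379_s_at had an SE of 2.83 log2 units in it. For members that differ between lines, the lack of a call there is no sign of equal fractions. With the line as a replicate block, limma gave an unadjusted p below 0.05 for 5.39% of probe sets and for 1 member, LETM1 233439_at (0.049, adjusted p = 0.87). Mean differences of the members ran from -0.36 to 1.08 log2 units, with a median of 0.11.

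Within a line each fraction has 1 array, so a difference has no replicate check. FGFR3 204379_s_at was higher in the CD24+ fraction in all 3 lines, by 0.30 within OPM2, 1.15 within ARP1 and 0.08 within OCI-MY5 (mean 0.51, SD 0.57, n = 3). These differences are small beside the 7.90 between lines. The dimmer FGFR3 204380_s_at differed by -1.60, 2.25 and -1.33 in the same order, so the FGFR3 probe sets shared no direction. Like 204379_s_at, NSD2 223472_at was higher in all 3 (0.28, 0.17 and 1.90 in the same order), as was LETM1 233439_at (1.23, 0.25 and 1.75). SLBP was lower in all 3 (-0.56, -0.09 and -0.07). That makes 3 members higher and 1 lower in every line, where 17.6% and 9.99% of all probe sets were.

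NSD2 had no common direction between fractions. Its median over 6 probe sets was -0.20 in OPM2, 0.26 in ARP1 and -0.12 for OCI-MY5; the brightest, 209054_s_at, differed by 0.25, 0.37 and -0.10. The widest NSD2 gap was in OPM2, where the CD24+ fraction was 2.23 lower by 209052_s_at. The 3′ to 5′ ACTB ratio of OPM2 was 27.1 for CD24+ and 7.54 for CD24-. ZNF595 227952_at differed by -0.50, 1.33 and 0.56, and TACC3 by 0.36, 0.67 and -0.23. Fractions lay at least 2-fold apart for 4 members within OPM2, 3 within ARP1 and 4 within OCI-MY5, and for 36.9%, 21.2% and 21.4% of all probe sets in these lines. The CD24+ fraction was the higher for 6 of 15 members within OPM2, 14 within ARP1 and 7 within OCI-MY5, and for 61.3%, 51.5% and 52.5% of all probe sets in these lines. The CD24+ array also had the higher median intensity in each line, at 135, 84.2 and 75.0, against 72.4, 76.3 and 69.0 for CD24-.

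**Figure D5:**
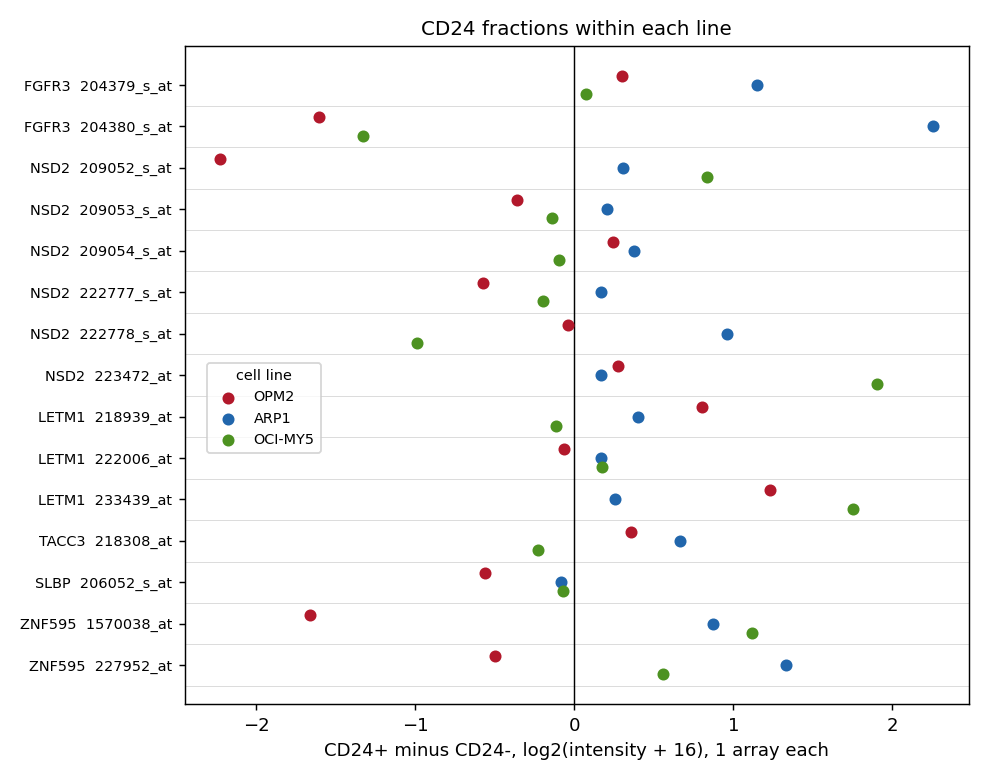
CD24+ minus CD24- in log2(intensity + 16) for each member probe set within OPM2, ARP1 and OCI-MY5, 1 array per fraction and so without error bars. Most points lie within 1 log2 unit of 0, and the widest include FGFR3 204380_s_at in ARP1 at 2.25 and NSD2 209052_s_at in OPM2 at -2.23. In OPM2 and OCI-MY5, FGFR3 204380_s_at lies below 0, at -1.60 and -1.33.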

How the data were processed

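Total RNA of sorted CD24+ and CD24- cells was hybridised to 1 array per sample, per the labels' protocols. Deposited values are linear MAS5 intensity, which the authors computed with Affymetrix Expression Console 1.1, per the submitters' processing notes. MAS5 subtracts a mismatch signal, takes a robust mean over a probe set's probe pairs and scales each array by 1 factor. Neither scanner files nor detection calls were used here, and the number of arrays limits the precision.

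Of 54675 probe sets, 62 controls were left out. Names came from the platform annotation, with 41037 of 41091 single-gene probe sets matched by Entrez ID to the RefSeq table of GRCh38.p14. Groups came from the line and CD24 labels. Values were taken as log2(intensity + 16) and tested by lmFit and eBayes of limma 3.58.1 under R 4.3.3 (two-sided, Benjamini-Hochberg at 0.05 over 54613 probe sets, no filter). Line contrasts came from 1 fit of the 3 lines. CD24+ was tested against CD24- without a block. The numbers in the titles stand for the lines: deviations from group means correlated at 0.32 to 0.45 between fractions of a line and at -0.30 to 0.05 otherwise, so they pair the samples.

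The fits were tested on simulated data first, with 200 of 54613 probe sets changed. For OPM2 minus the mean of the other lines, 0% of 2-fold, 17.9% of 8-fold and 60.6% of 64-fold changes were called. In the real contrast 1932 probe sets were called, and the Benjamini-Hochberg adjustment is stricter when fewer probe sets change. The simulated shares are therefore not the recovery rates of the real contrast. With 2 arrays per line, a difference that was not called is still no sign of equal levels. Of each list, called genes were to be named, up to 4 with the largest difference, and otherwise up to 2. Members, lists and tests were chosen with earlier results of these data known. Alternatives were pseudocounts of 1 and 64, a filter at the median intensity, quantile normalization, median centring, a variance trend, the brightest probe set per gene, the fraction as a term, the line as a block, and leaving out each array or line. Sequences are from RefSeq; Python 3.11.15 was used for the rest.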

Additional observations from a re-analysis of the deposited data

How the results depend on the processing

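With 2 arrays per line, the number of calls depended on the settings more than the differences did. For OPM2 minus the mean of the other lines, 1932 probe sets were called, against 825 with a pseudocount of 1, 4355 with 64, 5376 above the median intensity, 6875 with a variance trend, 597 with the fraction as a term and 0 to 4562 without 1 array. Only the loss of the OPM2 CD24- array raised that number: it was 4562 then, 598 without OPM2 CD24+, 99 and 76 without OCI-MY5 CD24+ and CD24-, and 73 and 0 without ARP1 CD24+ and CD24-. Among the members, 4 were called, against 2 with a pseudocount of 1 or the fraction as a term, 8 with a pseudocount of 64, the filter or the trend, and 0 to 3 without 1 array. Against ARP1 3 members were called, 6 with the filter, 7 with the trend and 0 to 2 without 1 array. Against OCI-MY5 they were 3, 8 with a pseudocount of 64, the filter or the trend, and 0 to 3 without 1 array. ARP1 minus OCI-MY5 gave 0 member calls, 3 with the trend and 0 without any 1 array. CD24+ minus CD24- gave 0 calls among all probe sets and members in every alternative, and the replicate block, alone or with quantile normalization or centring, gave 0 as well.

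FGFR3 204379_s_at stayed between 7.55 and 8.19 and ZNF595 227952_at between 6.41 and 7.34 in 14 alternatives each. NSD2 222777_s_at (1.96 to 2.58) and 222778_s_at (2.53 to 3.11) lost their calls in 8 of 13, a pseudocount of 1 among them. NSD2 209053_s_at, 209054_s_at and 223472_at and LETM1 222006_at were called with a pseudocount of 64, the filter and the trend. With the brightest probe set per gene, limma called 4 of 6 members, 3 higher and 1 lower. NSD2 209054_s_at was then called higher (limma adjusted p = 0.027) and LETM1 222006_at lower (limma adjusted p = 0.029). Signs turned for NSD2 209052_s_at (0.0218 with a pseudocount of 1, -1.13 to 1.097 without 1 array), LETM1 218939_at (-0.63 to 0.17 without 1 array), TACC3 (-0.23 centred, -0.0812 to 0.28 without 1 array) and SLBP (-0.15 centred, -0.11 to 0.46 without 1 array). The median of all probe sets was 0.15 as deposited, 0.03 after quantile normalization and -0.18 after centring. The cause of these shifts was not tested. A line left with 1 array was assumed to vary like the others. Dim probe sets, such as FGFR3 204380_s_at with 4 dim arrays, carry little signal over background.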
